A study of Rattus norvegicus with 47 samples.

Results

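The hypoxia response genes described here are 10 genes, Hif1a, Epas1, Egln1, Egln3, Vegfa, Bnip3, Bnip3l, Adm, Ddit4 and Ndrg1, measured in the blood of rats over the first day post middle cerebral artery (MCA) occlusion. They were found by gene symbol, with no use of their signal beyond a rule to take the brightest probe set of a gene, and each had 1 probe set, which made 10 of the 27596 probe sets and 10 of the 20935 genes on the array. Blood came from 8 male spontaneously hypertensive rats (SHR), a strain that develops high blood pressure without treatment, all 16 weeks old and all given an MCA occlusion with a thread under isoflurane in a mixture of oxygen and air. The samples fell into 6 groups by time, with 8 samples each at 0, 1, 2, 3 and 24 h and 7 samples at 6 h, where rat 3 had none. The 0 h sample was drawn before anaesthesia and the others after the start of the occlusion. The thread was withdrawn under renewed anaesthesia between the 1 h and the 2 h sample, so that the later samples followed reperfusion. The 24 h blood came from the heart, after an isoflurane overdose, and all earlier blood from a tail vein. Tail vein blood was drawn into heparin, and RNA was made from the blood cell pellet. No group without occlusion was followed over time in these arrays, so that time, occlusion, surgery, anaesthesia and repeated bleeding cannot be told apart, and at 24 h neither can the site of collection.

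When oxygen falls, cells stabilise the alpha subunits of the hypoxia-inducible factors (HIF), which pair with ARNT and switch on genes for glucose use, blood vessel growth and survival. With enough oxygen, prolyl hydroxylases of the EGLN family mark the alpha subunits for destruction through the von Hippel-Lindau protein, and some of these hydroxylases are themselves HIF targets. The regulation of the alpha subunits by oxygen is mainly at the level of the protein, which the arrays did not measure. In blood, neutrophils and monocytes rely on HIF for glycolysis and survival, and BNIP3L clears mitochondria from maturing red cells.

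HIF binds DNA at a short core whose usual form is ACGTG. The bases just before the gene start are shown for 4 of the genes because 2 of them, Egln3 and Vegfa, had the largest changes in blood and the others hold the core. The sequences are the 250 bases before the gene start in RefSeq's annotation of GRCr8, read 5′ to 3′ along the gene, and all 4 lie outside the annotated gene. Capitals mark this core and a form of it that starts with another purine, GCGTG. The core on the opposite strand reads CACGT, or in its other form, also in capitals here, CACGC. The forms for opposite strands can overlap, by all but their outer bases, where both are present.
Egln3, chr6:77411016-77411265, minus strand: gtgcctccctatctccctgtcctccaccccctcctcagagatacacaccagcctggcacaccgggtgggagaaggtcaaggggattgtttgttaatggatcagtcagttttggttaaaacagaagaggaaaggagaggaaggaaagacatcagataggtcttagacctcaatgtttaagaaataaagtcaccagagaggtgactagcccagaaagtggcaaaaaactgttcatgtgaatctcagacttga
Vegfa, chr9:22452604-22452853, plus strand: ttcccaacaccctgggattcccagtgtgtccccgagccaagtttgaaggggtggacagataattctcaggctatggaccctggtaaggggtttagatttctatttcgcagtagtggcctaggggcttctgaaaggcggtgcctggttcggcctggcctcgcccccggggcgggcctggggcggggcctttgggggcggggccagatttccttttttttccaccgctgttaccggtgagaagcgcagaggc
Ddit4, chr20:28437038-28437287, minus strand: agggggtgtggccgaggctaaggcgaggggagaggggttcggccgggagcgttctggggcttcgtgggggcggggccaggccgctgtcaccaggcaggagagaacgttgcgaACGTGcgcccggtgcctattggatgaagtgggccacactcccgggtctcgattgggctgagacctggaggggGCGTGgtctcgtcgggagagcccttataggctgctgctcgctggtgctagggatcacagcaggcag
Bnip3, chr1:203154963-203155212, minus strand: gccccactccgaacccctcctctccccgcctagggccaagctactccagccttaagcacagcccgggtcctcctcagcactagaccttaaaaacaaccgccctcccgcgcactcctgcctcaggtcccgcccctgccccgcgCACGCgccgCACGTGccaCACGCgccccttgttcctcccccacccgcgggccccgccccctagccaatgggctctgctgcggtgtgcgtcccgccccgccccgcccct
The table of promoters held 8 of the 10 genes. At least 1 core was present in 4 of the 8 (Hif1a, Egln1, Bnip3 and Ddit4) and in 36.7% of all 33469 promoters searched in the same 250 bases. In Ddit4 the cores began 138 and 66 bases before the gene start, and in Bnip3 they lay between 108 and 90 bases before it. No core was in the window of Egln3 or Vegfa, the 2 genes with the largest changes in blood, nor in that of Epas1 or Adm. No promoter was listed for Bnip3l and Ndrg1. A match is a run of letters and not a measured binding site, and a window without one says nothing of HIF binding elsewhere.

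Signals are the authors' means over the samples of a time point, given as log2 values with the authors' deposited SD. A change is the mean at one time point minus the mean at another on that log2 scale, so that 1 is a doubling. Changes were tested with a moderated test of the limma kind, computed from the deposited means, SDs and sample numbers, and the false discovery rate (FDR) was set over all 27596 probe sets, with 0.05 as the threshold. Levels of different genes were not compared as amounts of RNA, since their probes differ in brightness. Single arrays were not used, so it is not given whether single values of the groups overlapped. Genome positions of probe sets are those of the files' annotation on rn5 and span the transcript that the probes were designed for, introns included.

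An F-test over the 6 time points was past an FDR of 0.05 for 5 of the 10 genes, Hif1a, Egln3, Vegfa, Ddit4 and Ndrg1. At this FDR the share was no larger than in the blood transcriptome as a whole, where 55.5% of all probe sets passed. Without the 24 h samples 7 of the 10 genes were past it, Egln1 and Adm being added, against 53.5% of all probe sets. At an unadjusted F-test p below 5e-07 the same 5 genes passed, against 13.5% of all probe sets. Against 0 h, 4 genes were higher and none lower at 1 h, when 21.7% of all probe sets were higher and 15.4% lower. At 2 h, 5 were higher and none lower (21.7% and 18.6% of all). At 3 h, 6 were higher and none lower (27.3% and 19.2% of all). At 6 h, 5 were higher and 1, Ddit4, lower (22.5% and 19.3% of all). At 24 h, 1 was higher, Egln3, and 1 lower, Hif1a (17.4% and 13.9% of all). The median change of the 10 genes was 0.16, 0.15, 0.23, 0.23 and 0.08 in the order of the 5 later time points, while that of all probe sets lay between 0.04 and 0.07. In these bulk samples, fewer cells of a type and less RNA per cell cannot be told apart. All 5 comparisons share the 0 h samples and are therefore not independent of each other.

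**Figure D1:**
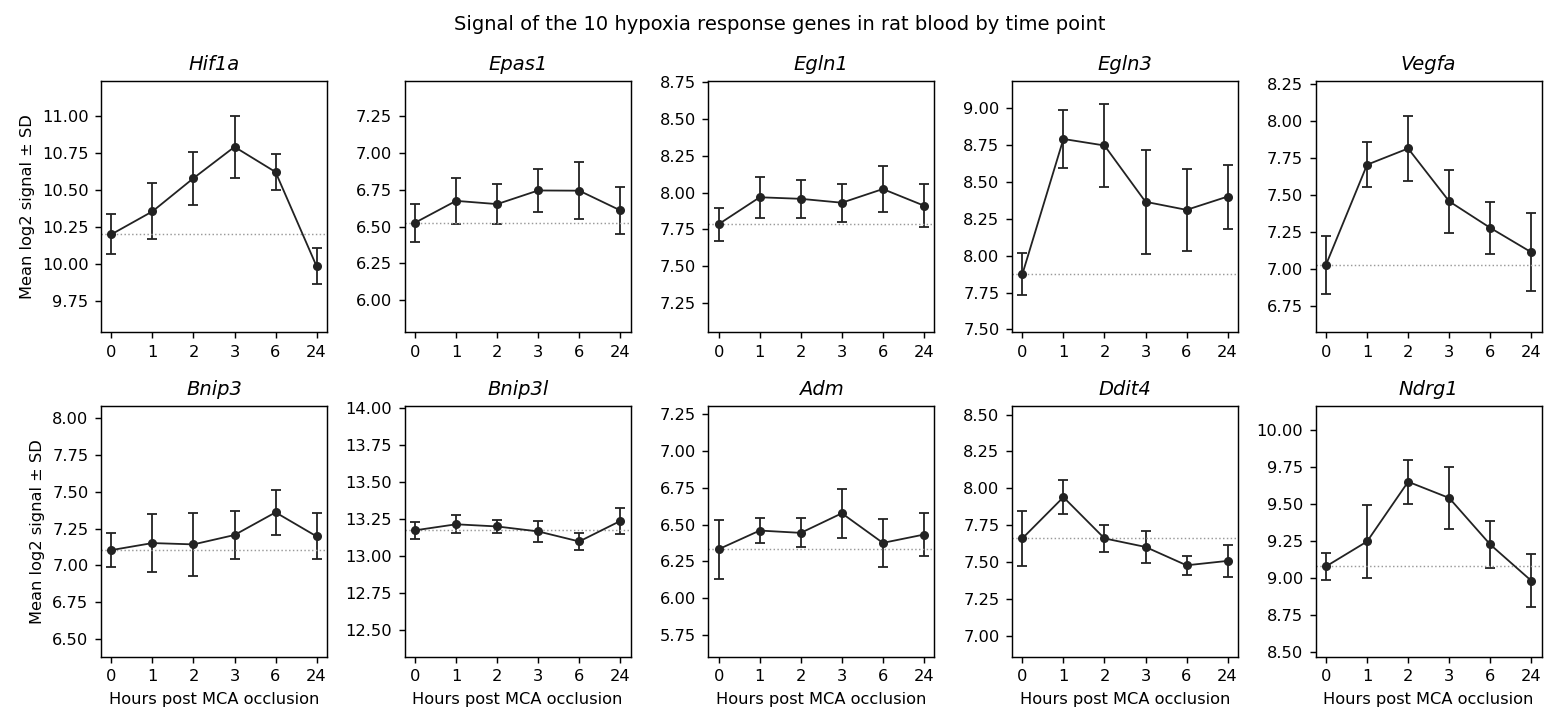
Signal of each of the 10 genes at the 6 time points, which are evenly spaced along the horizontal axis. Points are the authors' log2 means, bars the deposited SD, the dotted line is the 0 h mean, and every panel spans the same log2 range. Egln3 and Vegfa rise at 1 h, Ndrg1 is highest at 2 h and Hif1a at 3 h, while Bnip3l stays between 13.10 and 13.24.

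Hif1a encodes the oxygen-regulated alpha subunit that gives the pathway its name. Its probe set lies at chr6:106242730-106287704 on the plus strand. Its mean signal was 10.20 ± 0.14 (SD, n = 8) at 0 h, and at 1, 2, 3, 6 and 24 h it was 10.36 ± 0.19, 10.58 ± 0.18, 10.79 ± 0.21, 10.62 ± 0.12 (n = 7) and 9.99 ± 0.12. The mean was higher at each time point up to 3 h and ended below that at 0 h. In the order of the 6 means, neighbours did not differ at an FDR of 0.05, except that 24 h lay below 0 h. The 95% intervals of the changes from 1 h to 2 h (0.06 to 0.39) and from 3 h to 6 h (-0.34 to -0.0008) nonetheless excluded 0. The gain from 1 h to 2 h (0.22, FDR 0.0757) passed after centring on the median (0.25, FDR 0.0493). The gain at 3 h was 0.59 (SE 0.08, 1.51-fold, 95% interval 0.43 to 0.76, FDR 6.22e-08). It was already 0.38 at 2 h (FDR 1.75e-04) and still 0.42 at 6 h (FDR 6.35e-05), whereas the difference of 0.16 at 1 h did not pass (FDR 0.129). From 6 h to 24 h Hif1a fell by 0.64 (FDR 6.33e-08). The 24 h mean was lower than that at 0 h by a change of -0.22 (FDR 0.0378), a call that was lost when the time points' means were quantile normalized (-0.14, FDR 0.203).

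Epas1 encodes the second alpha subunit, best known from endothelium and from the control of erythropoietin. On rn5 it lies at chr6:20299602-20377837 on the plus strand. The 6 means ran from 6.53 ± 0.13 at 0 h through 6.67, 6.65, 6.74 and 6.74 to 6.61 at 24 h. The 0 h mean lay below the median of all probe sets at 0 h (6.61), and signal over background was not assessed. The F-test did not pass (FDR 0.0939). The differences from 0 h of 0.22 at 3 h (FDR 0.0174) and 0.22 at 6 h (FDR 0.0244) did pass, but neither did so once the time points were centred on their medians (FDR 0.055 and 0.0577) or quantile normalized (FDR 0.0811 and 0.0755).

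The largest change among the 10 genes was in Egln3, a prolyl hydroxylase that is strongly induced by HIF in many cells. The probe set lies at chr6:84592894-84618360 on the minus strand. The mean signal of Egln3 was 7.87 ± 0.14 (SD, n = 8) at 0 h, and at 1, 2, 3, 6 and 24 h it was 8.79 ± 0.20, 8.75 ± 0.28, 8.36 ± 0.35, 8.31 ± 0.28 (n = 7) and 8.40 ± 0.22. The highest mean came in the first samples after occlusion, a rise of 0.92 at 1 h (SE 0.12, 1.89-fold, FDR 6.66e-08), before the thread was withdrawn. The rise of 0.87 at 2 h (FDR 7.46e-08) did not differ from it beyond the spread (FDR 0.894). The means at 3, 6 and 24 h lay between the first and the highest mean, at 0.49 (FDR 9.44e-04), 0.44 (FDR 0.0044) and 0.53 (FDR 8.82e-04) above 0 h. The step from 2 h to 3 h, a change of -0.38, did not pass (FDR 0.0667). The 3 h mean was below the 1 h mean by a change of -0.43 (FDR 0.0153). The 6 h mean was below it by -0.48 (FDR 0.00384) and the 24 h mean by -0.39 (FDR 0.0433). At 24 h, 57.4% of the 1 h change was left. Egln3 passed the threshold as higher than 0 h at all 5 later time points, which among the 10 genes was also so for Egln1 after quantile normalization and for no other gene.

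Egln1, the hydroxylase that sets HIF levels in most cells at normal oxygen, had a largest change of 0.24. Its probe set maps to chr19:68375018-68412779 on the minus strand. Its means were 7.79 ± 0.11 at 0 h and then 7.97, 7.96, 7.93, 8.02 and 7.91 at 1, 2, 3, 6 and 24 h. That change, at 6 h, was past the threshold (FDR 0.00559). Those of 0.18 at 1 h (FDR 0.0316) and 0.17 at 2 h (FDR 0.0399) passed too, but not after centring on the median (FDR 0.133 and 0.0968). The F-test over all time points did not pass (FDR 0.058). After quantile normalization it did (FDR 0.00138), as did the changes at 3 h (0.24, FDR 0.00496) and 24 h (0.19, FDR 0.033). The difference in response between Egln3 and Egln1 was not tested.

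Vegfa encodes the vascular endothelial growth factor, the main driver of vessel growth and leakage under low oxygen. The gene's probe set maps to chr9:16232892-16245836 on the plus strand. The mean signal of Vegfa was 7.03 ± 0.20 (SD, n = 8) at 0 h, and at 1, 2, 3, 6 and 24 h it was 7.71 ± 0.15, 7.82 ± 0.22, 7.46 ± 0.21, 7.28 ± 0.18 (n = 7) and 7.11 ± 0.26. The means were highest at 1 and 2 h and lower at each later time point, so that the 24 h mean stood near the first. The 1 h and 2 h means did not differ beyond their spread (0.11, FDR 0.604). The rise was 0.68 at 1 h (FDR 8.61e-07) and 0.79 at 2 h (SE 0.10, 1.73-fold, FDR 1.15e-08). It was 0.43 at 3 h (FDR 5.42e-04), and the 0.25 left at 6 h stood at the threshold (FDR 0.0501). The 6 h change passed after quantile normalization (FDR 0.0341) and with the SDs of 0 h and 6 h only (FDR 0.0376). It also passed with an intensity trend and robust prior (FDR 0.0494) and without the lowest 25% of probe sets (FDR 0.0435). From 2 h to 3 h Vegfa fell by 0.36 (FDR 0.0325, or 0.0638 with the SDs of those 2 time points only). By 24 h 10.7% of the 2 h change was left, a difference from 2 h of -0.70 (FDR 4.91e-07).

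Adm encodes adrenomedullin, a secreted peptide that widens vessels. The probe set maps to chr1:182433109-182435281 on the plus strand. Its means were 6.33 ± 0.20 at 0 h and then 6.46, 6.44, 6.58, 6.38 and 6.43 at the later time points in order. Only the difference of 0.24 at 3 h passed (FDR 0.00629), and it missed the threshold after quantile normalization (0.18, FDR 0.0508). The F-test did not pass (FDR 0.0724). The 0 h mean of Adm lay below the median of all probe sets at 0 h (6.61), and signal over background was not assessed.

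Bnip3 and Bnip3l encode related proteins of the outer mitochondrial membrane that mark mitochondria for removal. The Bnip3 probe set lies at chr1:218174697-218191847 on the minus strand, and its means were 7.10 ± 0.11 at 0 h and then 7.15, 7.14, 7.21, 7.36 and 7.20 in the order of the later time points. The change of 0.26 at 6 h passed (FDR 0.015), the F-test did not (FDR 0.123). Bnip3l, at chr15:47927897-47951098 on the plus strand, gave a signal that had a mean of 13.17 at 0 h and of 13.22, 13.20, 13.17, 13.10 and 13.24 afterwards. It did not pass against 0 h at any time point, with 95% intervals of the change that lay between -0.16 and 0.14, and its F-test stood at the threshold (FDR 0.0503). The F-test passed without moderation (FDR 0.00868), with an intensity trend and robust prior (FDR 0.0281) and without the lowest 25% of probe sets (FDR 0.0414). From 6 h to 24 h it rose by 0.14 (FDR 0.0111), but not after quantile normalization (0.05, FDR 0.486) or with the SDs of those 2 time points only (FDR 0.0949). The 10 listed markers of red cells and reticulocytes were measured by 9 probe sets, since Hba1 and Hba2 share 1. Of the 9, 3 were lower at 6 h and 4 higher at 24 h than at 0 h, with median changes of -0.12 and 0.17, and their part in the Bnip3l signal was not tested.

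Ddit4 encodes an inhibitor of the growth kinase complex mTORC1 and answers to hypoxia, glucocorticoids and DNA damage. It is measured at chr20:31315023-31317485 on the minus strand. The mean signal of Ddit4 was 7.66 ± 0.18 (SD, n = 8) at 0 h, and at 1, 2, 3, 6 and 24 h it was 7.94 ± 0.12, 7.66 ± 0.09, 7.60 ± 0.11, 7.48 ± 0.06 (n = 7) and 7.51 ± 0.11. The rise was seen at 1 h alone, by 0.28 (SE 0.06, 1.21-fold, FDR 3.95e-04), and was gone at 2 h, a fall between these samples by 0.28 (FDR 0.00173). At 6 h the mean was below that at 0 h by a change of -0.18 (FDR 0.019). That call was lost after quantile normalization (FDR 0.27) and with the SDs of those 2 time points only (FDR 0.0607). The change of -0.15 at 24 h stood at the threshold (FDR 0.0537), and it passed without moderation (FDR 0.0478), after centring on the median (-0.19, FDR 0.0152) and without the lowest 25% of probe sets (FDR 0.0454). In a list of 8 genes induced by glucocorticoids, of which 7 were measured, 6, 5, 4, 3 and 2 were higher than at 0 h in the order of the later time points, and 1, Klf9, was lower at 6 h and 24 h. Their median changes were 0.89, 0.79, 0.38, 0.15 and -0.02. The members differed, since Klf9 changed by 0.27 at 1 h (FDR 0.0426) and -0.35 at 6 h (FDR 0.00834), and Fkbp5 was still higher by 0.67 at 24 h (FDR 1.32e-06). The part of this response in the Ddit4 signal was not tested.

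Ndrg1 encodes a cytoplasmic protein induced by hypoxia and by differentiation. The probe set is at chr7:107683924-107725300 on the minus strand. The mean signal of Ndrg1 was 9.08 ± 0.09 (SD, n = 8) at 0 h, and at 1, 2, 3, 6 and 24 h it was 9.25 ± 0.25, 9.65 ± 0.15, 9.54 ± 0.21, 9.23 ± 0.16 (n = 7) and 8.98 ± 0.18. The 2 highest means, at 2 and 3 h, did not differ beyond their spread. The rise was 0.57 at 2 h (SE 0.09, 1.49-fold, FDR 6.82e-07) and 0.46 at 3 h (FDR 3.19e-05). The difference of 0.17 at 1 h did not pass (FDR 0.128, or 0.025 after quantile normalization), nor did that of 0.15 at 6 h (FDR 0.192, or 0.0354 after quantile normalization). From 2 h to 24 h Ndrg1 fell by 0.67 (FDR 7.17e-08).

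**Figure D2:**
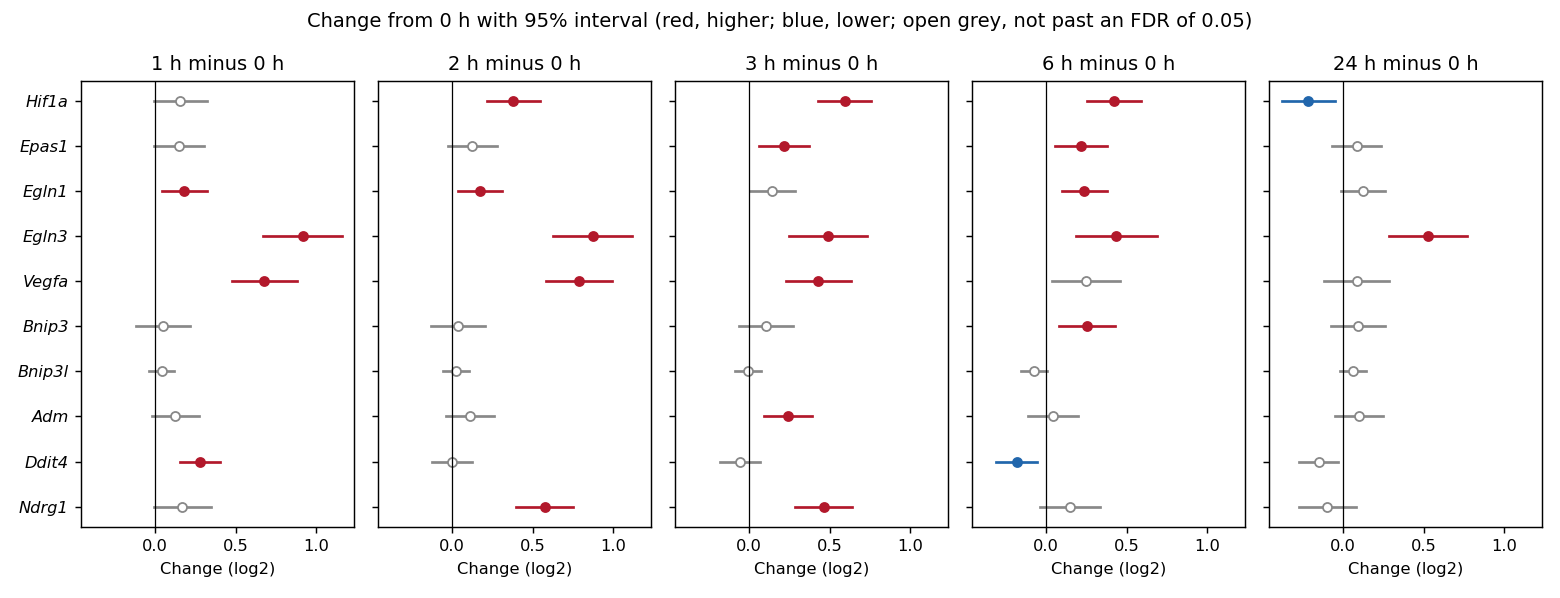
Change from 0 h of each gene at the 5 later time points, on the log2 scale, with its 95% interval. Filled red points are higher and filled blue points lower at an FDR of 0.05, and open grey points did not pass. Egln3 is red in all 5 panels, and the blue points are Ddit4 at 6 h (-0.18) and Hif1a at 24 h (-0.22).

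From 1 h on, few of the 10 genes changed between neighbouring time points, and the shares of all probe sets were also smaller than from 0 h to 1 h. From 1 h to 2 h Ndrg1 rose by 0.40 (FDR 0.00156) and Ddit4 fell, while 4.66% of all probe sets rose and 4.11% fell. From 2 h to 3 h 1 gene fell, Vegfa, with 1.9% of all rising and 1.62% falling. From 3 h to 6 h 1 gene fell, Ndrg1, by 0.31 (FDR 0.0333, or 0.0813 with the SDs of those 2 time points only), with 2.34% of all rising and 2.44% falling. From 6 h to 24 h Bnip3l rose and Hif1a fell, with 10.2% of all rising and 8.68% falling. Over that step Ndrg1 changed by -0.25 (FDR 0.0526), which passed after centring (FDR 0.0414), quantile normalization (FDR 0.0423) and without the lowest 25% of probe sets (FDR 0.0426). Among all probe sets past the F-test whose largest change was a rise, the share with its highest mean at 1 h was 16.2%, with 18.5%, 24.7%, 27.6% and 13.1% for the time points that followed. Of the 5 genes past the F-test, Egln3 and Ddit4 had their largest change at 1 h, Vegfa and Ndrg1 at 2 h and Hif1a at 3 h.

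For each of these 5 genes the other genes with the most similar course were sought among 20436 probe sets with 1 symbol, by the Euclidean distance over the 5 changes from 0 h. These distances are a description, and all the courses share the same samples. Nearest to Hif1a were Peli1 (distance 0.13 log2 units), which encodes a ubiquitin ligase of Toll-like receptor signalling, Zc3h12a (0.17), a ribonuclease that degrades cytokine messages, and Trappc2l (0.18). Nearest to Egln3 were Mknk1 (0.21), a kinase of the translation factor eIF4E, Slc24a3 (0.22) and Rmnd5b (0.28). Nearest to Vegfa were Gpnmb (0.14), Myct1 (0.19) and the co-chaperone gene Dnaja1 (0.20). Ddit4 lay nearest to Gorasp2 (0.12), Rab43 (0.12) and Polr3k (0.14), and Ndrg1 to Plbd1 (0.11), Fig4 (0.17) and Cracr2a (0.21). No other gene of the 10 was among these nearest courses. Between the 10 genes themselves the smallest distance was 0.10, between Epas1 and Egln1, and Hif1a and Ndrg1 were 0.38 apart.

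Around the 10 genes, a list of 127 further genes of the hypoxia pathway was examined, of which 120 were measured and 92 (76.7%) were past the F-test, beside 55.5% of all probe sets. Against 0 h, the number of higher genes was 41, 46, 46, 47 and 27 at the 5 later time points in order, and that of lower genes 16, 24, 19, 22 and 19. The higher share was 39.2% at 6 h and 22.5% at 24 h, beside 22.5% and 17.4% of all probe sets. The lower share, between 13.3% and 20% at the 5 time points, lay near that of all probe sets, between 13.9% and 19.3%. Counts in the groups below stand beside 21.7%, 21.7%, 27.3%, 22.5% and 17.4% of all probe sets that were higher, in the same order. No group was tested against these shares.

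Among 17 partners and sensors of HIF, 12 were past the F-test, with 4, 7, 5, 7 and 2 higher and 2, 1, 1, 0 and 2 lower than at 0 h in the order of the later time points. Cited2, a HIF target that competes with HIF for its coactivators, had a mean of 8.74 at 0 h and of 9.18, 9.54, 9.43, 9.37 and 8.87 at the later time points in order. It was higher by 0.80 at 2 h (FDR 3.78e-14), and the 0.13 left at 24 h did not pass (FDR 0.128). Arnt, the partner of both alpha subunits, was higher by 0.45 at 6 h (FDR 2.05e-05), and Os9 by 0.46 at 3 h (FDR 1.54e-05).

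In the VEGF family and its receptors, 5 of 8 measured were past the F-test, with 2, 3, 3, 3 and 1 higher and 1 lower throughout. At 5 of 8, and at 4 of 8 in the adrenomedullin family, these counts lay near the 55.5% of all probe sets. The gene that fell was Nrp1, a co-receptor for VEGF, with a mean of 9.24 at 0 h and of 7.84, 7.29, 7.07, 7.52 and 8.16 afterwards. Its change of -2.17 at 3 h (FDR 2.93e-22) was larger in size than any change among the 10 genes. Nrp2 was higher by 0.49 at 3 h (FDR 2.05e-07) and the ligand Figf by 0.26 at 2 h (FDR 0.00292). In the adrenomedullin family, 4 of 8 were past the F-test, with 1, 3, 3, 1 and 1 higher and 1, 2, 2, 2 and 2 lower in the order of the later time points. The receptor gene Calcrl was lower by a change of -0.65 at 6 h (FDR 2.82e-07) and its partner Ramp1 by -0.42 (FDR 8.67e-06), and the ligand Adm2 was higher by 0.26 at 3 h (FDR 0.00217).

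Among 15 mitophagy receptors and partners of BNIP3, 13 were past the F-test, with 8, 4, 5, 1 and 7 higher and 2, 4, 3, 4 and 2 lower in the order of the later time points. Bcl2, a survival factor bound by BNIP3, had a mean of 10.69 at 0 h and 9.15 at 6 h, a change of -1.55 (FDR 7.96e-14). The related survival gene Bcl2l1 was higher at all 5 time points, by 0.67 at 3 h (FDR 1.38e-09), and the mitophagy receptor gene Bcl2l13 by 0.51 at 1 h (FDR 1.37e-06). Of 10 measured regulators of mTORC1, 8 were past the F-test, with 2, 0, 2, 1 and 0 higher and 2, 5, 4, 6 and 3 lower in the order of the later time points. Sesn1 was lower by a change of -0.85 at 6 h (FDR 6.26e-10), Sesn3 by -0.75 at 3 h (FDR 1.21e-08) and Mtor itself by -0.49 at 2 h (FDR 1.87e-08). In the NDRG family of 3, the number higher was 2, 2, 2, 2 and 1 and that lower 0, 1, 0, 1 and 0. Ndrg2 was higher by 0.43 (FDR 3.62e-05) and Ndrg4 by 0.26 (FDR 7.32e-05) at 1 h. Ndrg3 was the 1 gene of the 3 not past the F-test, and it was lower at 2 h (-0.22, FDR 0.0239) and 6 h (-0.25, FDR 0.0134).

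All 20 measured glycolytic HIF targets were past the F-test, the highest share among the 8 groups of the list. The number higher than at 0 h was 6, 15, 12, 16 and 7 in the order of the later time points, and that lower 2, 2, 1, 1 and 1. At 6 h the lower gene was Pfkp, and the median change of the 20 was 0.51. Slc2a3, a glucose transporter, had a mean of 7.54 at 0 h and of 8.70, 9.50, 9.71, 10.06 and 8.75 afterwards. Its change was 2.52 at 6 h (5.72-fold, FDR 1.44e-17). Hk2, the inducible hexokinase, was higher by 2.06 at 3 h (FDR 7.72e-19) and Pfkfb3, which makes an activator of glycolysis, by 1.40 at 6 h (FDR 2.02e-17). The 3 genes were thus at their highest at 3 or 6 h, when Egln3 and Vegfa had passed their highest mean. The rest of the list was not uniform: Slc16a3, Pfkfb4 and Gys1 were highest at 2 h, Aldoc at 24 h, and Slc2a1 and Tpi1 at 6 h. Among 39 other measured HIF targets, 28 were past the F-test, with 16, 12, 14, 16 and 8 higher and 6, 8, 7, 7 and 8 lower in the order of the later time points. Nt5e, which makes adenosine outside the cell, was higher by 1.46 at 2 h (FDR 7.33e-17), the growth factor receptor gene Met by 1.66 at 6 h (FDR 7.24e-16), and the chemokine receptor gene Cxcr4 was lower by a change of -0.87 at 3 h (FDR 2.7e-10).

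**Figure D3:**
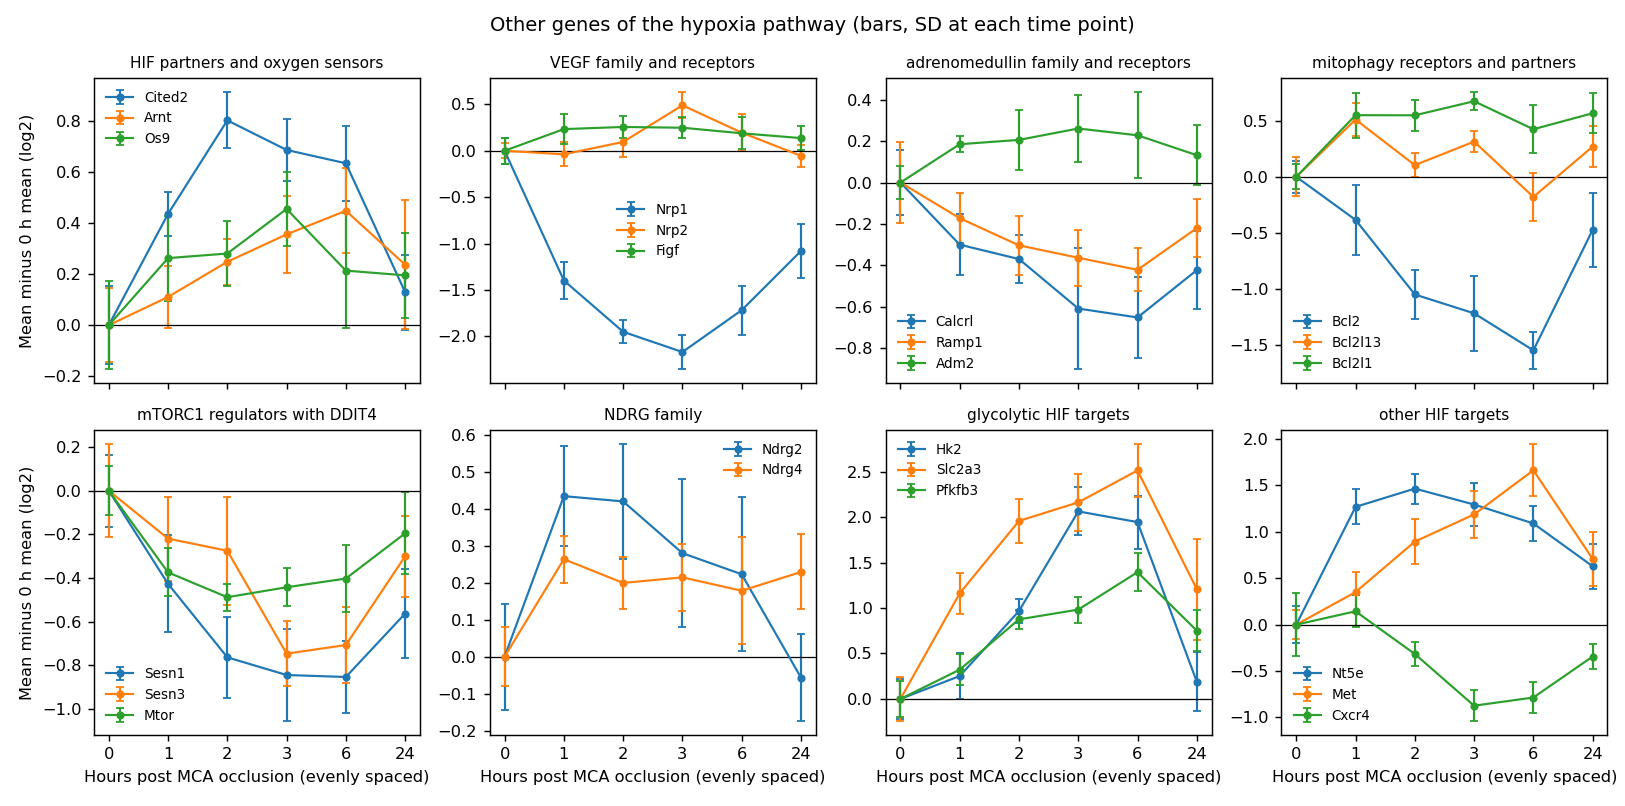
Other genes of the hypoxia pathway in 8 groups, up to 3 genes a group by the lowest F-test p. Points are the authors' log2 mean minus the 0 h mean, bars the deposited SD, and the vertical scales differ between panels. Slc2a3 and Hk2 are among the largest rises (2.52 and 2.06) and Nrp1 is the largest fall (-2.17).

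Markers of blood cell types moved over the same hours. Of 9 neutrophil markers, 8 were higher up to 6 h and 7 at 24 h, with median changes of 0.84, 1.48, 1.31, 1.70 and 0.78 in the order of the later time points, while Fcgr3a was lower (-0.99 at 2 h, FDR 4.69e-10). All 7 T cell markers were lower at every later time point, with medians of -0.55, -1.02, -1.02, -1.14 and -0.76. Of 6 B cell markers, 5 or 6 were lower at each time point, with medians of -1.50, -2.04, -2.13, -1.76 and -0.53. Of 5 NK cell markers, 2 were lower at 1 h and 4 from 2 h on, while Ncr1 was higher at 1, 2 and 6 h (0.34 at 6 h, FDR 0.00347). Of 7 monocyte markers, 2 were higher and 3 lower at 1 h, 5 were higher and 2 lower at each of the 3 middle time points, and 1 was higher and 3 lower at 24 h, with medians of 0.06, 0.30, 0.34, 0.28 and -0.11. Of 5 measured platelet markers, 2 were higher at 1 h and 3 at 24 h, none lower. The part of cell composition in each of these signals was not tested. At 24 h, when blood came from the heart, 3 of 5 cardiac muscle markers (median 0.14) and 2 of 3 measured endothelial markers (median 0.47) were higher than at 0 h. In tail vein blood at 3 h the same numbers were higher, 3 cardiac (median 0.18) and 2 endothelial (median 0.24), and the part of these markers in the signals was not tested.

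**Figure D4:**
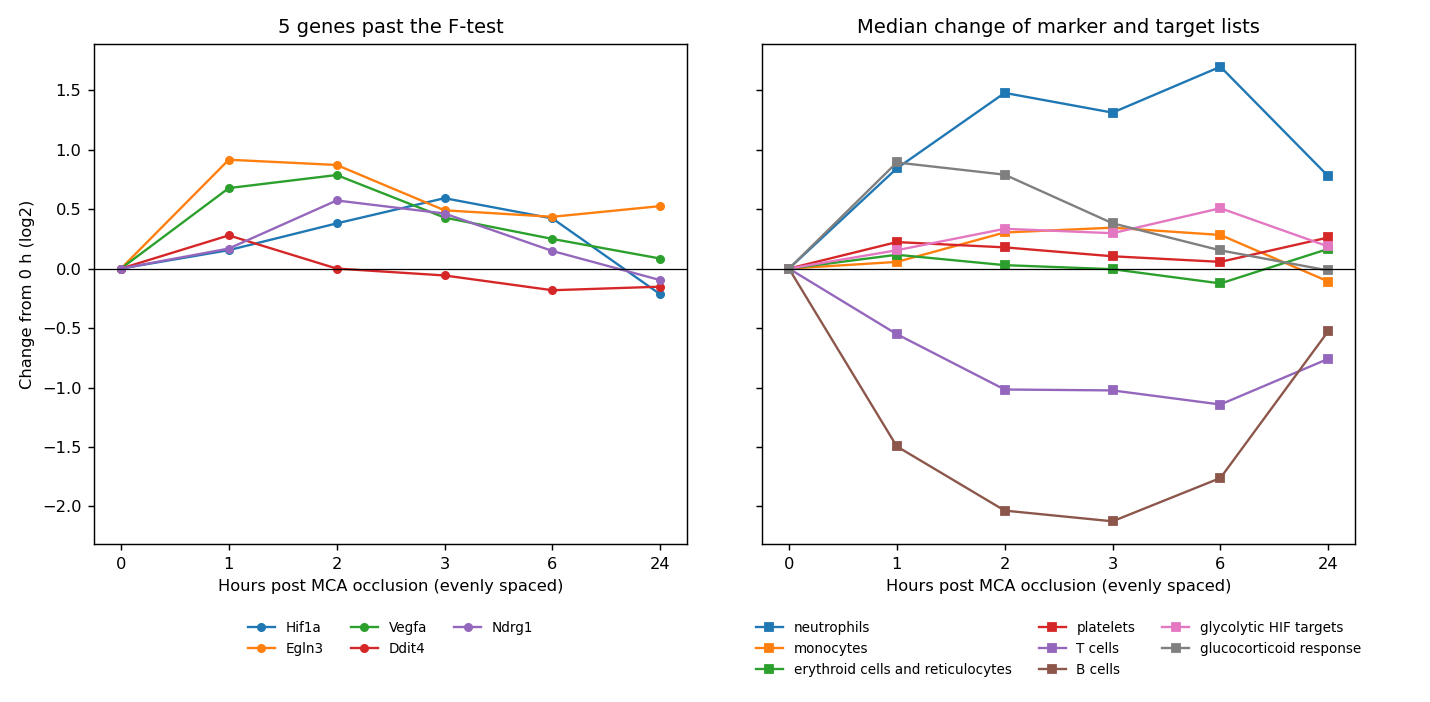
Change from 0 h over time, with time points evenly spaced. Left, the log2 change of the 5 genes past the F-test; right, on the same scale, the median log2 change of 8 gene lists. The neutrophil list is high from 2 h to 6 h (1.48, 1.31 and 1.70), the B cell list is lowest at 3 h (-2.13), and the glucocorticoid list falls from 0.89 at 1 h to -0.02 at 24 h.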

How the data were processed

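Blood of 8 rats at 6 time points (47 samples) was measured on Affymetrix RaGene arrays. The authors prepared RNA from the cell pellet in batches to which samples were assigned at random, amplified it, normalized the arrays by RMA, and deposited for each probe set the mean and SD of the log2 signal at each time point. Those log2 means and deposited SDs were used here. Values of 47 single arrays could not be matched to a sample and were not used, so rats were not paired and samples were taken as independent. The deposited fold changes, p-values and FDRs of each later time point against 0 h and of F-tests over time, all by the authors, were not used. The means are limited in precision by 7 or 8 arrays, and signal over background was not assessed. Epas1, Adm, Nrp2, Figf, Adm2, Ndrg2, Ndrg4 and Met had 0 h means below the median of all probe sets at 0 h (6.61).

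With R 4.3.3 and limma 3.58.1, variances pooled from the SDs (41 residual degrees of freedom) were moderated by squeezeVar (5.707 prior degrees of freedom), contrasts and an F-test were computed, and p-values were adjusted by Benjamini-Hochberg over all 27596 probe sets. The test was checked on simulated data, while the independence of samples from the same rats was not tested. RNA batches are not in the labels and were not tested.

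The genes were matched by symbol, taking the probe set with the highest mean. The genes and lists were chosen with earlier results of these data known. Named are the 10 genes, the up to 3 lowest F-test p-values in each pathway group, the 3 nearest courses, and markers beside a result. Pfkp, Slc16a3, Pfkfb4, Gys1, Aldoc, Slc2a1, Tpi1, Ndrg3, Klf9, Fkbp5, Ncr1 and Fcgr3a were named after their values were seen. Promoters are RefSeq's (GRCr8); no rn5 position was converted. Alternatives were an ordinary test, an intensity trend with robust prior, the SDs of the 2 time points compared, centring on the median, quantile normalization of the means, leaving out the lowest 25% of probe sets, leaving out 24 h, and the methods' stricter F-test threshold of 5e-07.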

Additional observations from a re-analysis of the deposited data

How the results depend on the processing

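Of 57 other computations of the counts over the 10 genes, 54 stayed within 1.5 times the reported count, among them the 5 genes past the F-test at the stricter threshold of 5e-07, which 13.5% of all probe sets passed. The exceptions were counts between neighbouring time points with the SDs of the 2 time points only. These were 0 genes in place of 1 from 2 h to 3 h and 0 in place of 1 from 3 h to 6 h. From 6 h to 24 h the count was 1 in place of 2. This setting has fewer samples and other SDs, and why the calls were lost was not tested. Of 60 other computations of each gene's largest change, 55 kept their direction and their side of the threshold and 0 reversed. Of the others, Epas1 at 3 h missed the threshold after centring on the median (0.18, FDR 0.055) and after quantile normalization (0.17, FDR 0.0811). Adm at 3 h missed it after quantile normalization (0.18, FDR 0.0508). Bnip3l at 6 h passed after centring (-0.11, FDR 0.0359). After quantile normalization the Bnip3l change was exactly 0, as was that from 2 h to 3 h. That method sets values by rank, so an unchanged rank gives exactly 0, and the ranks of Bnip3l were not examined. The share of all probe sets past the F-test ran from 48.1% after quantile normalization of the means to 65.2% without the lowest 25% of probe sets. Leaving out single replicates was not run, since the deposited means and SDs hold no single samples. No paired analysis was possible because the columns used carry no rat numbers. Each gene had 1 probe set, so no other probe set could be tried. The 7 or 8 arrays behind a mean limit its precision.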
